A study of Mus musculus with 13 samples.

Results

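The genes described here are 31 genes of cholesterol and fatty acid synthesis, chosen by symbol as targets or regulators of the sterol regulatory element-binding proteins (SREBPs). All 31 were among the 19737 genes of the table. They comprised 18 sterol synthesis genes, 5 genes of SREBP control and sterol transport, and 8 fatty acid synthesis genes. Of these, 29 had a mean of at least 1 FPKM (fragments per kilobase of exon, scaled to the library's depth) over all libraries and were tested, beside 10817 genes in all. Hsd17b7 (mean 0.911 FPKM) and Elovl6 (mean 0.718 FPKM) fell below that level.

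Cholesterol is built from acetyl-CoA through mevalonate, isoprenoids, squalene and lanosterol, and each step has its own enzyme. When sterol in the endoplasmic reticulum is low, SCAP carries SREBP to the Golgi, where it is cut and released to switch on these genes; INSIG proteins hold SCAP back when sterol is plentiful. SREBP-2 (Srebf2) acts mainly on sterol synthesis and uptake, and SREBP-1c (from Srebf1) on fatty acid synthesis. In the brain cholesterol is made locally, much of it by oligodendrocytes and astrocytes, and microglia also take up and export the sterol of myelin debris.

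RNA was measured by ribosomal RNA-depleted total RNA sequencing in 13 libraries labelled as mouse microglia, the resident macrophages of the brain. Wild type mice (3 libraries) and 5xFAD mice (2 libraries) were treated with AAV PHP.eB-EGFP, a virus with a capsid that enters the brain and a fluorescent protein as cargo. A further 4 libraries came from 5xFAD mice treated with AAV PHP.eB carrying circPOLR2A, a circular RNA. The last 4 came from 5xFAD mice with knockout of PKR, the kinase activated by double-stranded RNA and encoded by Eif2ak2. The 5xFAD mouse carries human transgenes with familial Alzheimer's disease mutations, driven by a neuronal promoter, so all groups but the wild type share those transgenes. In the labels the bracketed numbers after circPOLR2A are not the same for each of these 4 libraries, although the titles list them as a single group. For the PKR knockout mice no virus is listed. Library names are given for that group alone, so any separate handling of it and the genotype cannot be told apart. Age, sex, cell isolation and pooling are not stated in the labels, and p-values here measure the spread between these libraries.

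Depth recovered from the steps of the FPKM values was 45.2 to 70.0 M fragments per library, with 47.2 to 50.5 M in wild type and 57.7 to 70.0 M in PKR knockout. The members rested on 97 (Elovl6) to 35137 (Scd2) fragments each. Summed FPKM of 10 microglial markers was 3157 to 5962, and no marker of any cell type list was at 0 in any library. Wild type replicate 3 had the lowest microglial sum and the highest sum of 10 oligodendrocyte markers (1660 FPKM, against 420 and 378 in the other wild type libraries) and of 10 astrocyte markers (363 FPKM, against 134.5 and 106). Oligodendrocyte sums were 707 and 751 in 5xFAD EGFP, 824, 325, 343 and 851 in circRNA replicates 1 to 4, and 237 to 401 in PKR knockout. Neuronal sums ranged from 22.3 to 94.4 FPKM. The summed endothelial and mural markers were 100 to 232 FPKM in wild type and 42.9 to 120 in the other groups, and border macrophage markers 41.9 to 66.3 against 15.5 to 28.6. Eif2ak2 was at 5.18, 5.23 and 4.14 FPKM in wild type, 6.49 and 6.59 in 5xFAD EGFP, 7.37 to 8.11 with circRNA and 3.31 to 4.61 in PKR knockout. The knockout values lay below both other 5xFAD groups and overlapped wild type; which exons the allele lacks is not given in the sources used here.

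Upstream sequences were read from RefSeq promoter windows (250 bases before to 50 after a start site, build GRCm38.p6), in which 24 of the 31 members had an entry. Fdps, Fdft1, Sqle, Stard4, Scd1, Scd2 and Fads1 had none. The windows were searched on both strands for TCACNCCAC, a form of the sterol regulatory element that SREBP binds, and for CCAAT, the box bound by NF-Y. Matches to these strings can share bases at their ends, as CCAAT matches on opposite strands did in Fasn, and none did in Hmgcs1. TCACNCCAC was found in 1 of 24 members (4.17%), Hmgcs1, and in 1.44% of 27025 genes. CCAAT was found in 19 of 24 members (79.2%) and in 41.1% of all genes, and among the members only Acat2, Scap, Acaca, Fads2 and Elovl6 had an entry without it. A match is a description of the letters in this window. The lines below show the upstream stretches of Hmgcs1 and of the members that passed a test below and whose match lies outside the annotated gene. They were chosen after their values were seen. Capitals mark the matches, with ATTGG as the reverse complement of CCAAT.
Hmgcs1, chr13:119690101-119690325, plus strand: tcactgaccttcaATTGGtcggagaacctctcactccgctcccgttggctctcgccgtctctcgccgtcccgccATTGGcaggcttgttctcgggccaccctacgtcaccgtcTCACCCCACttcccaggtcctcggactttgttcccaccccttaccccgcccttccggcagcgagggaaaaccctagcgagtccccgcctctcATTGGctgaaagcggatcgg
Sc5d, chr9:42264305-42264339, minus strand: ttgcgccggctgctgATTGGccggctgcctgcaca
Pmvk, chr3:89454390-89454424, plus strand: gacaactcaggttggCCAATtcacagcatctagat
Insig1, chr5:28071181-28071215, plus strand: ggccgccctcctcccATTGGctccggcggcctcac
Srebf2, chr15:82147119-82147153, plus strand: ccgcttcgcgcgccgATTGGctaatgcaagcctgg
In Hmgcs1 the sterol element match began at -137 from the start site, between CCAAT matches at -176 and -45. Dhcr7, Cyp51, Msmo1, Mvk and Hsd17b7 also held CCAAT.

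No single order of the groups held for most genes, but the highest and lowest groups recurred. The mean FPKM was highest with circRNA in 19 of the 31 genes, including 14 of the 18 sterol synthesis genes, and lowest in PKR knockout in 20, including 12 of the 18 sterol genes and 7 of the 8 fatty acid genes. Wild type had the lowest mean in 9 genes and the highest in 7, 4 of them fatty acid genes. Among the 29 tested members circRNA was highest in 62.1% and PKR knockout lowest in 62.1%, beside 34.1% and 38.2% of all genes tested. Summed over the 18 sterol genes, the level was 46.1 ± 8.46 FPKM in wild type (SD, n = 3), 55.2 ± 2.21 in 5xFAD EGFP (SD, n = 2), 60.5 ± 7.86 with circRNA (SD, n = 4) and 43.2 ± 2.09 in PKR knockout (SD, n = 4). Every PKR knockout library (40.4 to 45.4) lay below every circRNA library (49.9 to 68.1) and both 5xFAD EGFP libraries (53.6 and 56.7). Wild type spanned 39.1 to 55.5 and overlapped the knockout, circRNA and 5xFAD EGFP ranges.

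**Figure D1:**
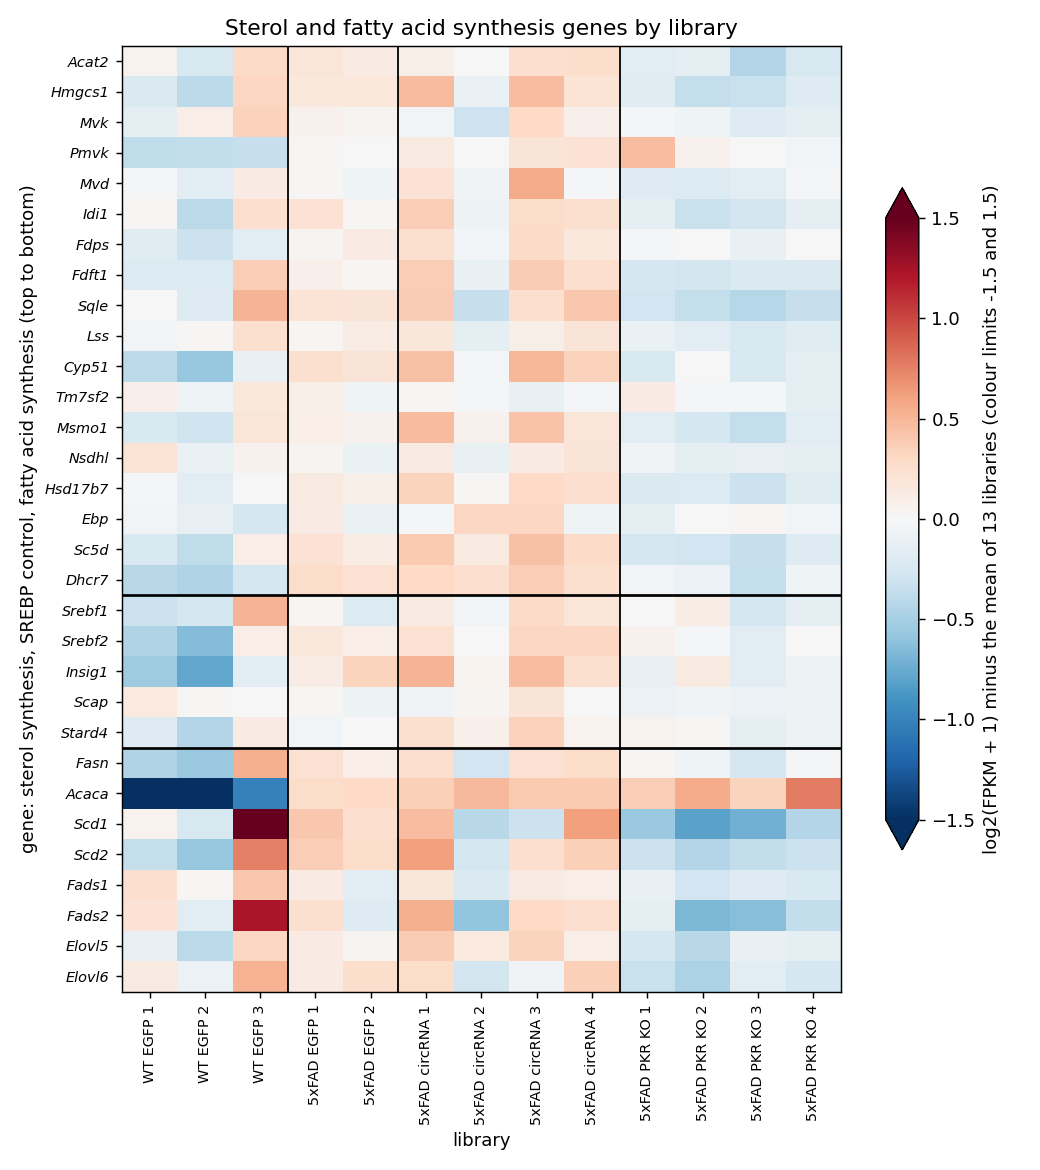
Log2(FPKM + 1) of each gene less its mean over the 13 libraries (colour, limited at -1.5 and 1.5), with genes in rows by role and libraries in columns by group. PKR knockout libraries are low across most sterol and fatty acid genes, and wild type replicate 3 is the highest wild type library in 28 of the 31 genes.

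Replicates also moved together. Wild type replicate 3 was the highest of its group in 28 of 31 members (90.3%), against 27.9% of all genes tested, and in all 8 fatty acid genes. Replicate 2 of the circRNA group was the lowest of its group in 24 of 31 (77.4%), against 31.5% of all genes. The median coefficient of variation of the members was 24.7% in wild type, against 13.4% over all genes tested, with Scd1 the most variable at 81.7%. It was 5.03% against 6.63% in 5xFAD EGFP, 16.2% against 10.8% with circRNA, and 8.95% against 8.57% in PKR knockout. The oligodendrocyte marker sum was likewise highest in wild type replicate 3 and lowest among circRNA libraries in replicate 2, and it was also low in circRNA replicate 3, which was lowest in 1 member. The astrocyte marker sum was highest in wild type replicate 3 and, at 142 FPKM, lowest among circRNA libraries in replicate 2, with 261 in replicate 3. The part of those cells' RNA in the results below was not tested, and in these bulk libraries fewer cells of a type cannot be told apart from less RNA per cell.

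**Figure D2:**
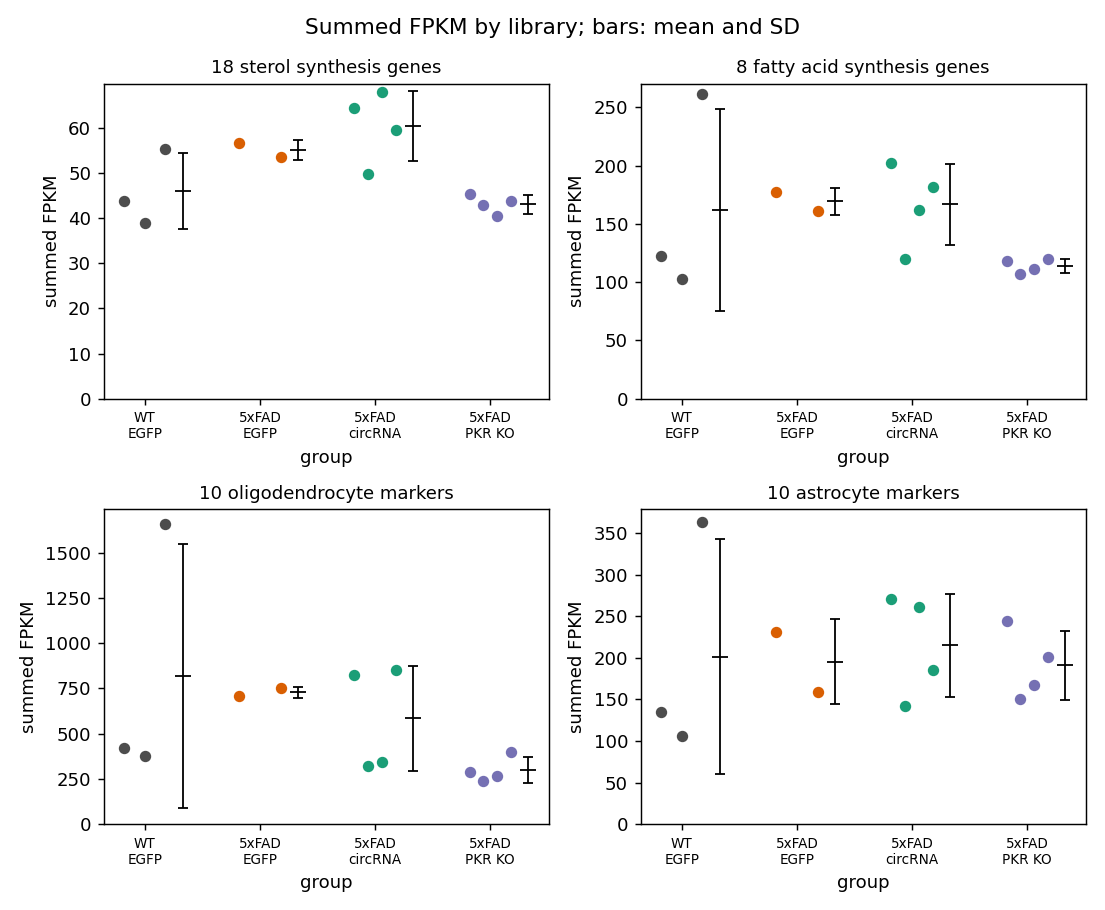
Summed FPKM of the 18 sterol synthesis genes, the 8 fatty acid synthesis genes, 10 oligodendrocyte markers and 10 astrocyte markers in each library (points), with mean and SD by group (bars). The 4 knockout libraries lie at 40.4 to 45.4 for sterol genes and at 237 to 401 for oligodendrocyte markers, and wild type replicate 3 stands above the other wild type libraries in all 4 panels.

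How microglia of 5xFAD mice differ from wild type was compared first, under the EGFP vector. Acaca, which encodes the acetyl-CoA carboxylase that commits carbon to fatty acids, rose 4.57-fold in mean FPKM. Insig1, Dhcr7 and Cyp51 also rose, by 1.72-, 1.80- and 1.66-fold. These 4 of 29 members (13.8%) passed the threshold (limma, adjusted p under 0.05), none of them lower, beside 14.0% of all genes tested (7.65% higher and 6.35% lower), so the share of members was close to the background. The median log2 change of the members, a difference of group means of log2(FPKM + 1), was 0.15, against -0.03 over all genes. It was 0.0004 with equal FPKM sums, where the all-gene median was -0.17, and -0.015 without wild type replicate 2. In 7 members (24.1%) both 5xFAD EGFP libraries lay above all wild type libraries, beside 16.5% of all genes. Without wild type replicate 3, 8 members passed, all higher, beside 8.96% of all genes higher and 9.51% lower in that fit. Without wild type replicate 1 or either 5xFAD EGFP library 2 passed, beside 10.3%, 6.16% and 5.23% of all genes. With each library scaled to the same FPKM sum, the split of members was 4 higher and 2 lower, and that of all genes 708 higher and 3001 lower in place of 827 and 687. Among markers of other cells, 8 of 9 tested endothelial and mural genes and 6 of 6 border macrophage genes fell. Of 10 astrocyte genes 1 rose and the other 9 were negative (median of the list -0.40). No oligodendrocyte or neuronal gene passed, with 8 of 10 positive (median 0.75) and 6 of 6 positive (median 0.60). The part of these cells in the result was not tested.

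With circRNA, 10 of 29 members (34.5%) were higher than in wild type and none lower, beside 25.8% of all genes (17.8% higher and 8.05% lower). These were the sterol synthesis genes Pmvk, Fdps, Cyp51, Msmo1, Sc5d and Dhcr7, the regulators Insig1 and Srebf2, the sterol transporter gene Stard4, and Acaca. The median log2 change was 0.27, against 0.02 over all genes, and in 7 members all circRNA libraries lay above all wild type libraries, beside 20.2% of all genes. Leaving out wild type replicate 3 raised the count to 16, all higher, beside 23.8% of all genes in that fit (1624 higher and 953 lower). Scaling to the same FPKM sum moved the median of all genes to -0.20, the members' median to 0.02 and their split to 6 higher and 3 lower; that of all genes became 995 higher and 4681 lower in place of 1925 and 871. It was 1779 and 1500 with median-ratio scaling and 1619 and 1544 with quantile normalization, which left the members at 9 higher and 1 lower. The members' median less the all-gene median was 0.22 to 0.25 under every scaling tried.

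In PKR knockout against the same wild type libraries, members moved both ways. Acaca, Pmvk, Insig1 and Dhcr7 rose, and the desaturase genes Scd1, Fads1 and Fads2 fell, so 7 of 29 passed (24.1%) beside 37.0% of all genes (17.5% higher and 19.4% lower). The members' median was -0.12, against -0.05 over all genes, and 4 members lay wholly above wild type and 6 wholly below, beside 19.8% and 21.1% of all genes. That median was 0.04 with the glial marker covariate and 0.03 without wild type replicate 3. With the same FPKM sum the split was 2 higher and 15 lower among members and 1174 and 5421 among all genes, in place of 1898 and 2099. Without wild type replicate 3 it was 6 higher and 1 lower, beside 15.3% and 19.7% of all genes. The count was 4 without wild type replicate 1 or knockout replicate 1, and 3 without knockout replicate 2 or 4, fits in which 28.7% to 31.4% of all genes passed. Endothelial and mural markers fell in 4 of 9 with circRNA and 8 of 9 in knockout, border macrophage markers in 6 of 6 in both, and 3 of 10 astrocyte markers fell and 1 rose in knockout. All 10 oligodendrocyte markers were negative in knockout (median -0.76, 4 wholly below wild type, 3 at an unadjusted p under 0.05, none past the threshold). The part of these markers' cells in the results was not tested. These 3 comparisons share the wild type libraries, so their changes are set side by side and their likeness was not used as evidence.

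Between the circRNA and PKR knockout groups, which have 4 libraries each, the members that passed were all sterol synthesis genes. Sc5d, Msmo1, Dhcr7, Cyp51 and Acat2 were 1.46- to 1.68-fold higher in mean FPKM with circRNA. They made up 5 of 29 members (17.2%), none lower, beside 6.19% of all genes tested (4.28% higher and 1.91% lower). Of all members 27 of 29 had a positive change, beside 68.5% of all genes, and the median was 0.32, against 0.08 over all genes; of the 17 tested sterol genes 16 were positive, with a median of 0.40. In 11 members (37.9%) all circRNA libraries lay above all knockout libraries, beside 15.1% of all genes, and 17 (58.6%) were higher at an unadjusted p under 0.05, beside 19.6%. Each scaling tried left 26 of the 29 members above the median of all genes, while the split over all genes turned from 463 higher and 207 lower to 339 and 344 with equal sums, 260 and 681 with median-ratio scaling, and 164 and 347 with quantile normalization.

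The oligodendrocyte markers moved in the same direction between these groups: all 10 had a positive change with a median of 0.89, 6 of them at an unadjusted p under 0.05, and none passed the threshold. Of 10 astrocyte markers 9 were positive, with a median of 0.47 and none past the threshold, and of 6 tested neuronal markers 2 were. Without a covariate, 17.2% of the 29 tested members passed, all higher, beside 4.28% of all genes higher. With the mean log2 level of the astrocyte and oligodendrocyte markers as a covariate, the members' median fell to 0.13. In that fit 3 of the 29 tested members passed, all among the 5 above, beside 8.98% of all genes higher. These were Sc5d (0.43, adjusted p = 0.00747), Dhcr7 (0.37, adjusted p = 0.0164) and Msmo1 (0.35, adjusted p = 0.0206). Cyp51 (0.30, adjusted p = 0.0702) and Acat2 (0.28, adjusted p = 0.0908) did not. The count was 13 without wild type replicate 3, which enters only the shared spread, and 10 without circRNA replicate 2, beside 12.4% and 4.29% of all genes. It was 8 without wild type replicate 2 (5.69% of all genes) and 3 without either EGFP library, circRNA replicate 4 or knockout replicate 4 (4.06% to 4.68%). It was 2, Sc5d and Dhcr7, without circRNA replicate 1 or 3 or knockout replicate 1, 2 or 3, where 1.36% to 2.87% of all genes passed.

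**Figure D3:**
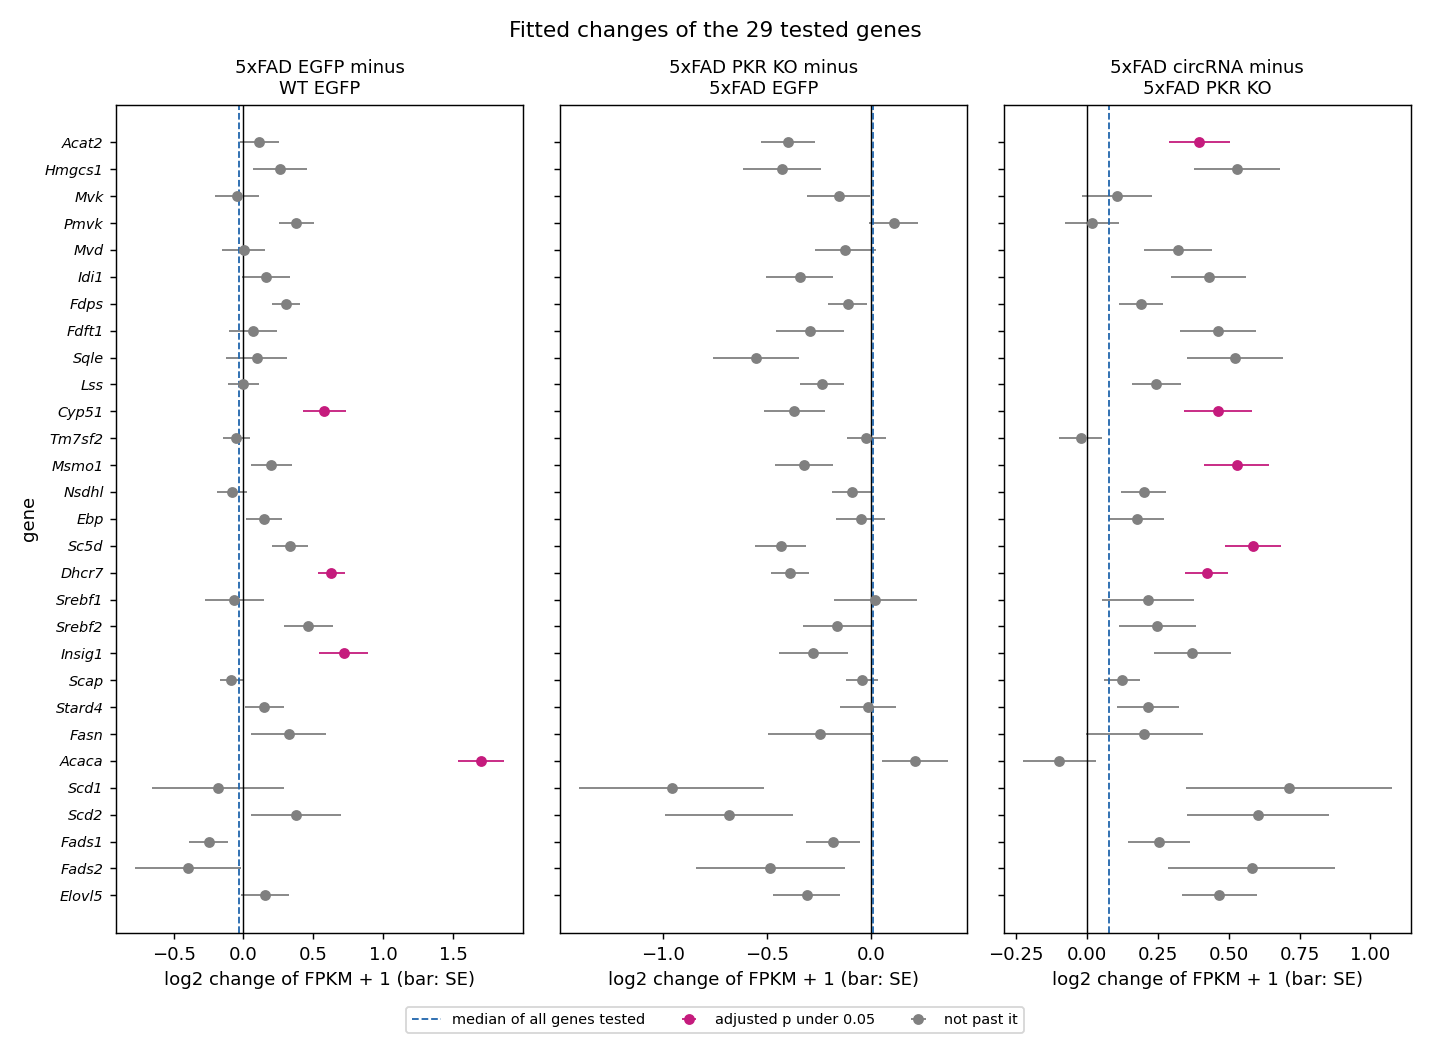
Log2 change of FPKM + 1 with its SE (bars) for the 29 tested genes in 3 comparisons, with the median of all genes tested as a dashed line. Acaca stands at 1.70 in the first panel, no gene passes in the second, and Sc5d, Msmo1, Dhcr7, Cyp51 and Acat2 pass in the third.

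Against the 5xFAD mice with EGFP, no member passed in PKR knockout (limma), beside 0.0832% of all genes (9 genes, all higher), a comparison with 2 libraries on its baseline side. At an unadjusted p under 0.05, 9 of 29 members were lower and none higher, beside 5.57% of all genes lower and 7.41% higher. All knockout libraries lay below both EGFP libraries in 17 of 29 members (58.6%), beside 17.0% of all genes, and 26 of 29 members had a negative change, beside 51.8% of all genes with a positive one, with a median of -0.25 against 0.01. Acaca alone lay wholly above them (17.7% of all genes). The smallest adjusted p were those of Dhcr7 (-0.39, SE 0.09, adjusted p = 0.154) and Sc5d (-0.44, SE 0.12, adjusted p = 0.206). With only these groups in the model 8 members passed, all lower, beside 3.37% of all genes lower and 1.96% higher, and with library weights 6, all lower, beside 3.23% lower and 4.37% higher. All 10 oligodendrocyte markers were negative too, with a median of -1.51: all 10 lay wholly below EGFP and 8 had an unadjusted p under 0.05, with none past the threshold. All 6 tested neuronal markers were negative and wholly below (median -0.69), and 9 of 10 astrocyte markers were negative with 2 wholly below (median -0.42), none past the threshold. The covariate brought the members' median to -0.05.

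Between circRNA and EGFP in 5xFAD mice no member passed (limma), as for all genes tested, of which 0% passed. None of the members reached an unadjusted p under 0.05, beside 4.83% of all genes. The median change was 0.09, against 0.08 over all genes, and 22 of 29 members were positive (75.9%), beside 77.7% of all genes. Sc5d differed by 0.15 (SE 0.12), Dhcr7 by 0.03 (SE 0.09) and Insig1 by 0.09 (SE 0.17), and the ranges of each overlapped between these groups. Stard4 and Acaca were the members whose circRNA libraries all lay above both EGFP libraries, 6.90% of members beside 16.6% of all genes.

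**Figure D4:**
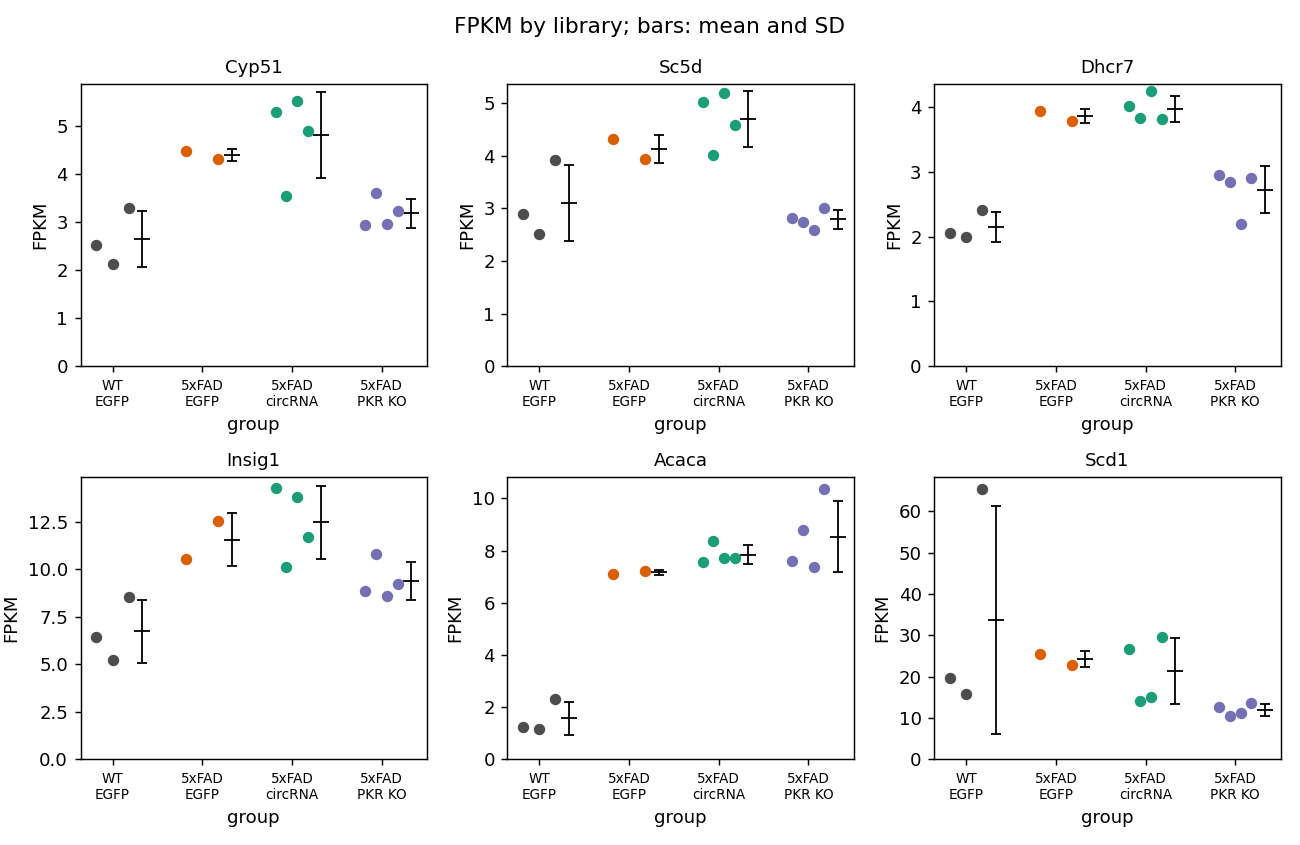
FPKM of Cyp51, Sc5d, Dhcr7, Insig1, Acaca and Scd1 in each library (points) by group, with the group mean and SD (bars). Acaca is low in all 3 wild type libraries, Sc5d and Dhcr7 are lower in every knockout library than in every circRNA library, and Scd1 reaches 65.4 in 1 wild type library.

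Among the late sterol enzymes, Dhcr7 (chr7:143823145-143848410, plus strand) makes cholesterol from 7-dehydrocholesterol in its last step. Its FPKM was 2.05, 1.99 and 2.42 in wild type, 3.94 and 3.79 in 5xFAD EGFP, 4.01, 3.84, 4.25 and 3.81 with circRNA, and 2.95, 2.85, 2.20 and 2.91 in PKR knockout. All circRNA and EGFP libraries of 5xFAD mice lay above all others, and the knockout libraries were intermediate, replicate 3 of them within the wild type range. Dhcr7 rose by 0.63 (SE 0.10, adjusted p = 0.00121) with EGFP, by 0.66 (SE 0.08, adjusted p = 9.02e-05) with circRNA and by 0.24 (SE 0.08, adjusted p = 0.0371) in knockout, each against wild type. The last did not pass with equal FPKM sums (0.07, adjusted p = 0.411), with only the compared groups, nor on leaving out wild type replicate 1 or 2 or knockout replicate 1, 2 or 4 (0.20 to 0.22). Between circRNA and knockout it was 0.42 higher (SE 0.08, adjusted p = 0.0113) and passed under every alternative that tested it.

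Sc5d (chr9:42251595-42264256, minus strand) introduces the double bond that Dhcr7's substrate carries. It was at 2.90, 2.51 and 3.91 FPKM in wild type, 4.31 and 3.95 in 5xFAD EGFP, 5.02, 4.02, 5.20 and 4.58 with circRNA, and 2.83, 2.75, 2.59 and 3.01 in knockout. No knockout library reached the lowest circRNA or EGFP library, and the knockout values fell within the wild type range. The difference between circRNA and knockout was 0.58 (SE 0.10, adjusted p = 0.00932), the largest of the 5, and it passed under every alternative that tested it. Against wild type it was 0.48 higher with circRNA (SE 0.11, adjusted p = 0.0056), though not past the threshold with equal FPKM sums (0.26), and 0.33 higher with EGFP (SE 0.13, adjusted p = 0.111).

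Msmo1 and Cyp51 remove the methyl groups of lanosterol. Msmo1 (chr8:64718139-64733792, minus strand) was at 2.43, 2.29 and 3.56 FPKM in wild type, 3.31 and 3.23 in 5xFAD EGFP, 4.62, 3.23, 4.41 and 3.57 with circRNA, and 2.58, 2.36, 2.15 and 2.59 in knockout. Knockout and circRNA values did not overlap, whereas wild type overlapped both. Msmo1 was 0.53 higher with circRNA than in knockout (SE 0.11, adjusted p = 0.0225) and 0.40 higher than in wild type (SE 0.12, adjusted p = 0.0286). The former did not pass without circRNA replicate 1 or 3 or knockout replicate 1, 2 or 3 (0.46 to 0.55). The latter did not pass with equal FPKM sums, median-ratio scaling or only the compared groups, nor without wild type replicate 1 or 2 or circRNA replicate 1 or 3 (0.32 to 0.36). Cyp51 (chr5:4081145-4104746, minus strand) was at 2.53, 2.13 and 3.29 FPKM in wild type, 4.49 and 4.32 in 5xFAD EGFP, 5.29, 3.54, 5.53 and 4.89 with circRNA, and 2.95, 3.61, 2.97 and 3.22 in knockout. Here circRNA replicate 2 fell inside the knockout range, and both EGFP libraries lay above all wild type and knockout libraries. Cyp51 rose by 0.58 (SE 0.15, adjusted p = 0.0256) with EGFP and 0.67 (SE 0.13, adjusted p = 0.00233) with circRNA against wild type, and was 0.46 higher with circRNA than in knockout (SE 0.12, adjusted p = 0.0422). That last call ended under each of the 3 scalings, without the filter on low values, and without any single 5xFAD library other than circRNA replicate 2 (0.40 to 0.51). The call with EGFP ended without either EGFP library or wild type replicate 1 or 2 (0.47 to 0.60), and with only the compared groups. Its exons overlap those of Akap9 on the opposite strand by 166 bases, and how counting treated strand is not given in the sources used here.

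Earlier in the pathway, Acat2 (chr17:12942890-12960747, minus strand) joins acetyl-CoA units. Its FPKM was 2.47, 1.86 and 3.08 in wild type, 2.80 and 2.63 in 5xFAD EGFP, 2.55, 2.32, 2.98 and 3.01 with circRNA, and 1.97, 2.02, 1.48 and 1.83 in knockout. All circRNA and EGFP libraries lay above all knockout libraries, and wild type overlapped both. The circRNA to knockout difference of 0.40 (SE 0.11, adjusted p = 0.0494) ended under each of the 3 scalings, without the filter on low values, and without wild type replicate 1 or any single 5xFAD library other than circRNA replicate 2 (0.33 to 0.43). Pmvk (chr3:89454541-89469013, plus strand), the phosphomevalonate kinase, had another pattern: 2.13, 2.14 and 2.19 FPKM in wild type, 3.12 and 3.07 in 5xFAD EGFP, 3.47, 3.09, 3.64 and 3.73 with circRNA, and 4.57, 3.25, 3.07 and 2.95 in knockout. Every 5xFAD library lay above every wild type library, and the knockout overlapped both other 5xFAD groups. Pmvk rose by 0.51 with circRNA (SE 0.10, adjusted p = 0.00354) and by 0.49 in knockout (SE 0.10, adjusted p = 0.00335) against wild type, under every alternative that tested it, and was 0.38 higher with EGFP (SE 0.12, adjusted p = 0.0625). Fdps (chr3:89093588-89101959, minus strand), which makes farnesyl diphosphate, was at 0.958, 0.775 and 0.969 FPKM in wild type, 1.27 and 1.41 in 5xFAD EGFP, 1.61, 1.15, 1.69 and 1.46 with circRNA, and 1.19, 1.23, 1.05 and 1.20 in knockout. Every 5xFAD library was above the wild type range, and the test passed with circRNA (0.38, SE 0.08, adjusted p = 0.00559). Fdps shares 1124 bases of exon with Gm43738 on the same strand, so reads could be split between them.

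The other tested sterol genes did not pass in any comparison. Between circRNA and knockout, Hmgcs1, which makes the precursor of mevalonate, differed by 0.53 (SE 0.15, adjusted p = 0.0573). Fdft1, the squalene synthase, differed by 0.46 (adjusted p = 0.0585), Idi1 by 0.43 (adjusted p = 0.0718) and Sqle, the squalene epoxidase, by 0.52 (adjusted p = 0.0824). In Hmgcs1, Fdft1 and Idi1 the groups did not overlap: Hmgcs1 was at 11.7, 7.49, 11.5 and 9.50 FPKM with circRNA and 7.03, 6.07, 6.21 and 6.95 in knockout. Exons of Fdft1 overlap those of Ctsb by 774 bases, and exons of Hmgcs1 those of Gm48342 by 557, both on the opposite strand. Sqle overlapped through circRNA replicate 2, at 0.863 FPKM beside 0.762 to 0.953 in knockout and 1.82 to 2.14 in the other circRNA libraries. Mvd (0.32), Lss (0.25), Nsdhl (0.20), Ebp (0.17) and Mvk (0.11) had smaller positive differences, and Tm7sf2, a sterol reductase, stood at -0.02 (SE 0.08). Hsd17b7 was at 0.912 to 1.38 FPKM with circRNA and 0.508 to 0.674 in knockout, without overlap. In a model without the filter on low values it was 0.45 higher with circRNA than in knockout (SE 0.07, adjusted p = 0.0165) and 0.28 higher than in wild type (SE 0.08, adjusted p = 0.0291). Of all genes in that model, 1.48% and 11.2% were higher in these comparisons.

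Of the regulators, Insig1 (chr5:28071363-28078662, plus strand), which retains SCAP in the endoplasmic reticulum and is itself an SREBP target, was at 6.45, 5.26 and 8.53 FPKM in wild type. It was at 10.6 and 12.6 in 5xFAD EGFP, 14.3, 10.1, 13.8 and 11.7 with circRNA, and 8.86, 10.8, 8.59 and 9.22 in knockout. Every 5xFAD library exceeded the highest wild type library, and knockout overlapped the other 5xFAD groups. Insig1 rose against wild type by 0.72 (SE 0.18, adjusted p = 0.0172) with EGFP, 0.81 (SE 0.15, adjusted p = 0.00156) with circRNA and 0.44 (SE 0.15, adjusted p = 0.0338) in knockout. The rise with EGFP did not pass without wild type replicate 1 or either EGFP library (0.60 to 0.83), nor with only the compared groups. That in knockout did not pass with only the compared groups, equal FPKM sums or quantile normalization, nor without wild type replicate 1 or 2 or knockout replicate 1, 2 or 4 (0.30 to 0.46). Srebf2 (chr15:82147181-82205379, plus strand) was at 8.48, 7.19 and 12.9 FPKM in wild type, 13.4 and 12.8 in 5xFAD EGFP, 14.2, 12.0, 15.05 and 14.98 with circRNA, and 12.5, 11.6, 10.5 and 12.0 in knockout. Wild type replicate 3 lay within the 5xFAD values and the other wild type libraries below all of them. Srebf2 rose by 0.55 with circRNA against wild type (SE 0.15, adjusted p = 0.016), but did not pass with equal sums, with quantile normalization, with only the compared groups, or without wild type replicate 1 (0.49) or 2 (0.39). Stard4, which carries cholesterol between membranes, was at 1.11, 0.77 and 1.61 FPKM in wild type, 1.33 and 1.41 in 5xFAD EGFP, 1.84, 1.53, 2.07 and 1.49 with circRNA, and 1.49, 1.43, 1.19 and 1.28 in knockout. The circRNA libraries stood above all other 5xFAD libraries and overlapped wild type. Its rise with circRNA against wild type was near the threshold (0.35, SE 0.12, adjusted p = 0.0483) and passed with 1 library left out only when that was wild type replicate 3 or circRNA replicate 4 (other values 0.21 to 0.39). It also did not pass with equal FPKM sums (0.18), with median-ratio scaling (0.30), without the filter on low values or with only the compared groups. Srebf1 and Scap passed in no comparison; Srebf1 ranged from 10.6 to 19.6 FPKM, its highest value being wild type replicate 3, and Scap from 6.62 to 8.33.

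In fatty acid synthesis Acaca (chr11:84129672-84401651, plus strand) had the largest change of all members. It was at 1.23, 1.16 and 2.305 FPKM in wild type, 7.10 and 7.23 in 5xFAD EGFP, 7.55, 8.37, 7.74 and 7.72 with circRNA, and 7.60, 8.78, 7.38 and 10.4 in knockout. Every 5xFAD library was at more than 3 times the highest wild type library. Acaca rose by 1.70 (SE 0.17, adjusted p = 3.59e-05) with EGFP, 1.81 (SE 0.14, adjusted p = 2.16e-06) with circRNA and 1.91 (SE 0.14, adjusted p = 1.11e-06) in knockout, each under every alternative that tested it. Its difference between knockout and 5xFAD EGFP was 0.21 (SE 0.16, adjusted p = 0.57). Fasn, which elongates malonyl-CoA into palmitate, did not follow it: wild type was at 7.02, 6.42 and 14.8 FPKM and the 5xFAD libraries at 7.98 to 12.3, and its change with EGFP was 0.32 (SE 0.27, adjusted p = 0.488).

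The desaturases were highest in wild type replicate 3. Scd1 (chr19:44394455-44407879, minus strand), the stearoyl-CoA desaturase, was at 19.8, 15.9 and 65.4 FPKM in wild type, 25.6 and 22.9 in 5xFAD EGFP, 26.6, 14.0, 15.02 and 29.7 with circRNA, and 12.7, 10.5, 11.2 and 13.7 in knockout. Every knockout library was below every other library. Against wild type Scd1 fell by 1.14 in knockout (SE 0.39, adjusted p = 0.0387). Without wild type replicate 3 the value was -0.53 (adjusted p = 0.126); leaving out any EGFP or knockout library also ended the call (-1.20 to -1.08), and with the glial marker covariate it was -0.45 (adjusted p = 0.0586). Library weights (-0.69), median-ratio scaling (-1.11), no filter on low values and a model of only the compared groups also ended it. Fads2 (chr19:10062765-10101746, minus strand), which starts the making of long polyunsaturated fatty acids, was at 8.28, 6.09 and 17.7 FPKM in wild type, 8.46 and 6.001 in 5xFAD EGFP, 10.5, 4.28, 8.84 and 8.54 with circRNA, and 6.21, 3.99, 4.13 and 5.20 in knockout. The groups overlapped; its fall of 0.88 in knockout against wild type (SE 0.32, adjusted p = 0.0453) became -0.48 (adjusted p = 0.186) without wild type replicate 3. It also missed the threshold without wild type replicate 1, either EGFP library, circRNA replicate 3 or 4, or knockout replicate 2, 3 or 4 (-0.99 to -0.81). The same held with the glial marker covariate (-0.32, adjusted p = 0.0688), library weights (-0.56), median-ratio scaling (-0.86), no filter on low values, or only the compared groups. Fads1 (chr19:10182888-10196877, plus strand), the next desaturase of that route, was at 18.4, 15.5 and 20.5 FPKM in wild type, 16.7 and 13.5 in 5xFAD EGFP, 17.3, 13.0, 16.9 and 16.4 with circRNA, and 14.0, 12.3, 13.3 and 12.9 in knockout. All knockout libraries lay below all wild type libraries, and the fall of 0.43 (SE 0.12, adjusted p = 0.0129) passed under every alternative that tested it, at -0.34 (adjusted p = 0.0455) without wild type replicate 3.

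Scd2, the main brain desaturase, had the highest level of the members, at 58.2, 50.1 and 127 FPKM in wild type, 97.0 and 90.4 in 5xFAD EGFP, 115, 61.9, 89.5 and 96.3 with circRNA, and 59.6, 55.0, 57.9 and 59.4 in knockout. All circRNA and EGFP libraries lay above all knockout libraries, which overlapped wild type. Its change in knockout against EGFP was -0.68 (SE 0.31, adjusted p = 0.377), and with circRNA against knockout 0.60 (SE 0.25, adjusted p = 0.156). Elovl5, an elongase of polyunsaturated fatty acids, was at 9.83 to 12.2 FPKM with circRNA and 6.62 to 8.39 in knockout, and differed by 0.47 (SE 0.13, adjusted p = 0.0547). Elovl6, which lengthens palmitate, was at 0.579 to 1.41 FPKM in wild type, 0.388 to 1.15 with circRNA and 0.216 to 0.491 in knockout. In a model without the filter it fell by 0.50 in knockout against wild type (SE 0.17, adjusted p = 0.0441), beside 19.5% of all genes lower. Wild type replicate 3 was at 1.41 FPKM and the others at 0.849 and 0.579, and this fall was not tested without it.

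Other genes of the same routes were read from lists. Of 20 tested further SREBP pathway genes, 1 was higher and 1 lower in 5xFAD EGFP against wild type, 4 and 1 with circRNA, and 2 and 7 in knockout. As shares of the list these are 5.00% and 5.00%, 20% and 5.00%, and 10.0% and 35.0%, beside 7.65% and 6.35%, 17.8% and 8.05%, and 17.5% and 19.4% of all genes tested. Acacb, the mitochondrial acetyl-CoA carboxylase, fell in each of these comparisons, by 0.92, 0.64 and 0.90, so the carboxylase genes Acaca and Acacb changed in opposite directions. The Acacb call with circRNA ended without 6 of the 13 libraries in turn, and that with EGFP without 4. Both calls also ended with only the compared groups. That with circRNA ended as well with a pseudocount of 0.1, with library weights and without the filter on low values. Between circRNA and knockout 4 of the 20 genes were higher, among them Tmem97 (0.39), Rnf139 (0.36) and Acat1 (0.24), and none lower, which is 20% of the list beside 4.28% of all genes tested higher. Leaving out 1 library at a time, Tmem97 passed in 11 of 13 fits (not without knockout replicate 1 or 2), Rnf139 in 7 (not without circRNA or knockout replicate 1, 2 or 3) and Acat1 in 3 (those without wild type replicate 1 or 3 or circRNA replicate 2). Rnf139 also missed the threshold with quantile normalization (0.25) and without the filter on low values. Acat1 missed it with quantile normalization and with median-ratio scaling (0.15 in both). It was also missed by Acat1 without that filter, with a minimum of 5 FPKM and with only the compared groups.

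Of 14 tested genes of fatty acid elongation and activation, 2 were higher and 1 lower with EGFP, 4 and 1 with circRNA, and 2 and 6 in knockout, each against wild type. These are 14.3% and 7.14%, 28.6% and 7.14%, and 14.3% and 42.9% of the list, against the same shares of all genes. Hacd2, a dehydratase of the elongation cycle, rose in all 3 (0.52, 0.80 and 0.51), and Acsl3 (-1.12), Elovl7 (-1.11) and Fads6 (-0.86) fell in knockout. Between circRNA and knockout Fads6 (0.55), Hacd3 (0.42) and Hsd17b12 (0.35) were higher and none lower (21.4% of the list, beside 4.28% of all genes). With 1 library left out in turn, Hacd3 passed in 10 of 13 fits (not without circRNA replicate 1 or knockout replicate 1 or 2). Fads6 passed in 4, those without a wild type library or circRNA replicate 2, and Hsd17b12 in 4, those without wild type replicate 1 or 3, circRNA replicate 4 or knockout replicate 4. Fads6 also missed the threshold with equal FPKM sums, with median-ratio scaling and without the filter on low values, and Hsd17b12 without that filter. The fall of Acsl3 did not pass with library weights, nor without wild type replicate 3 or knockout replicate 2. The rise of Hacd2 with EGFP did not pass with only the compared groups, nor without either EGFP library. Of 16 tested LXR targets and genes of sterol efflux and esters, 5 were higher and 1 lower with EGFP, 5 and 1 with circRNA, and 6 and 2 in knockout, or 31.2% and 6.25%, 31.2% and 6.25%, and 37.5% and 12.5% of the list, beside 7.65% and 6.35%, 17.8% and 8.05%, and 17.5% and 19.4% of all genes. Ch25h, which makes 25-hydroxycholesterol, an oxysterol that blocks SREBP processing, rose most, from 0.457 to 0.560 FPKM in wild type to 9.14 to 15.2 in the 5xFAD libraries. Nceh1, a cholesteryl ester hydrolase, rose from 2.50 to 2.71 FPKM to 11.6 to 17.5. Npc2, Lipa and Soat1, which release and re-esterify lysosomal cholesterol, also rose in all 3 comparisons. With EGFP, Lipa and Soat1 did not pass with only the compared groups, nor without EGFP replicate 1. In this list 1 gene, Npc1 (0.35), was higher with circRNA than in knockout (6.25% of the list, near the 4.28% of all genes), in 7 of 13 fits with 1 library left out (not without circRNA or knockout replicate 1, 2 or 3). Other genes of this list, among them the LXR targets Abca1, Lpcat3, Abcg1 and Mylip, did not all move up from wild type. Mean Abca1 was 58.1 FPKM in wild type and 42.2, 47.6 and 56.9 in 5xFAD EGFP, circRNA and knockout. In the same order Lpcat3 was at 17.5, 12.1, 12.8 and 10.4 FPKM. Abcg1 was at 17.0, 17.2, 20.8 and 21.6, and Mylip at 47.8, 49.85, 54.2 and 62.3. None of these 3 lists had a gene past the threshold between circRNA or knockout and 5xFAD EGFP (limma).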

How the data were processed

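The authors deposited 1 table of FPKM values, one column per library; per the submitters' processing notes Bowtie2 2.3.5, HISAT2 2.1.0, featureCounts 1.5.1 and mm10 were used. The strand setting of counting and the annotation are not given in the sources used here. Depth was recovered from FPKM steps with GENCODE M21 exon lengths (98.26% of genes); 90.9% to 93.0% of 23541 low values were whole within 0.05 fragment, against 10% by chance. FPKM depends on each library's total, so abundant genes that change can shift others. Sums ranged from 123352 to 135807 in wild type and from 139018.5 to 170775 in the 5xFAD libraries. Every wild type sum thus lay below every 5xFAD sum.

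Tests used limma 3.58.1 (R 4.3.3) on log2(FPKM + 1), for genes whose mean reached 1 FPKM, with all 4 groups in 1 model (9 residual degrees of freedom), eBayes with trend, and Benjamini-Hochberg adjustment over 10817 genes in each of 6 comparisons (threshold 0.05). Log2 changes understate changes of genes near 1 FPKM. There were 10 alternatives and 13 fits leaving out 1 library. Every member past the threshold is named, with up to 5 genes of each other list per comparison, apart from some genes not reported here. Members and lists were chosen with earlier results of these data known.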

Additional observations from a re-analysis of the deposited data

Results flagged for a closer look

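Of 62 checks of a member in a group of 4 libraries, 2 had 1 library far from the others, where chance flags about 1 in 20 such groups. Fasn in 5xFAD circRNA replicate 2 was at 7.978 FPKM, against 11.8 to 12.3 in the other 3 libraries, a gap of 0.894 of the group's range. Dhcr7 in 5xFAD PKR knockout replicate 3 was at 2.195 FPKM, against 2.85 to 2.95 in the others, a gap of 0.866 of the range.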

How the results depend on the processing

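The number of members past the threshold varied with the processing. For 5xFAD EGFP against wild type it was 4, and 2 with a minimum of 5 FPKM (13 members tested), 7 with quantile normalization, 2 with only the compared groups, 8 with library weights and 10 with the glial marker covariate (8 higher, 2 lower). Of all genes tested 14.0% passed, and under these settings in turn 17.4%, 18.2%, 4.71%, 20.7% and 22.5%. For PKR knockout against 5xFAD EGFP it was 0, and 8 with only those groups and 6 with weights, beside 0.0832%, 5.33% and 7.60% of all genes. The covariate moved the median from -0.25 to -0.0494. For circRNA against wild type it was 10, and 3 with a minimum of 5 FPKM, 16 with weights and 18 with the covariate. Beside these, 25.8%, 35.3%, 27.2% and 34.2% of all genes passed. The median of the members was 0.0153 with equal FPKM sums and 0.4435 with weights. For PKR knockout against wild type it was 7, and 17 with equal sums and 3 with only those groups, beside 37.0%, 61.0% and 29.7% of all genes. The median of the members was -0.296 with equal sums and 0.0435 with the covariate. For circRNA against PKR knockout it was 5, and 1 with a minimum of 5 FPKM, 3 with each of the 3 scalings, 9 with only those groups, 20 with weights, and 3 with the covariate, where the median was 0.1331. Of all genes tested 6.19% passed, and 6.22% with that minimum. That share was 6.31%, 8.70% and 4.72% with equal sums, median-ratio scaling and quantile normalization. It was 8.26% with only those groups, 29.2% with weights and 12.7% with the covariate. The causes were not tested, apart from fewer members being tested at a minimum of 5 FPKM.

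Leaving out 1 library gave 2 to 8 members in 5xFAD EGFP against wild type (median -0.015 to 0.3076), 7 to 16 in circRNA against wild type (0.1296 to 0.4272), 3 to 9 in knockout against wild type (-0.2006 to 0.0313) and 2 to 13 in circRNA against knockout (0.2418 to 0.3984). Knockout against wild type fell to 3 without knockout replicate 2 or 4 and to 4 without knockout replicate 1 or wild type replicate 1. Circular RNA against knockout fell to 2 or 3 without any single 5xFAD library other than circRNA replicate 2, and rose to 8 without wild type replicate 2. It was 0 throughout for knockout against EGFP (-0.3113 to -0.2164) and circRNA against EGFP (0.04 to 0.1578). A group left with 1 library is assumed to vary like the others. Of the 26 gene results past the threshold, 203 of 244 values under alternatives and 264 of 338 with a library left out still passed in the same direction, and none reversed.

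A replicate block gave counts of 4, 0 (circRNA and knockout against EGFP), 10, 7 and, for circRNA against knockout, 7. Of all genes, 12.1% passed under it in EGFP, 24.8% in circRNA and 35.8% in knockout against wild type. Against EGFP 0% passed with circRNA and 0.203% in knockout, and 4.14% passed between circRNA and knockout. The paired fit ended the calls of Acat2 (adjusted p = 0.0676) and Cyp51 (adjusted p = 0.0524) between circRNA and knockout and of Dhcr7 (adjusted p = 0.0807) between knockout and wild type, and among the other genes named those of Rnf139, Acat1, Hsd17b12 and Npc1 between circRNA and knockout. Same-numbered libraries deviated together in knockout against EGFP (r 0.27 and 0.38, 4 of 4 libraries best with their own number). The 2 EGFP libraries deviate from their mean as mirror images, so these 4 are not separate observations. In circRNA against knockout r ran from 0.04 to 0.55 (2 of 8 best with their own number). It ran from -0.42 to 0.69 in circRNA against wild type, so the numbers were not taken as pairs. Counting error was small for most members, and Elovl6 (97 fragments at the lowest) and Fdps (156) were the least deep.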
